A study of Mus musculus with 2 samples.

Results

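The genes described here are 9 of the 19059 measured: Il31ra, Osmr, Il6st, Lifr, Jak1, Jak2, Tyk2, Stat3 and Socs3, the receptor chains, kinases, transcription factor and feedback inhibitor of the interleukin 31 receptor and its JAK-STAT pathway. They were taken by gene symbol, and all 9 had UMIs in both libraries. Dorsal root ganglia of the neck, which hold the cell bodies of sensory neurons, were collected from mice of 2 genotypes, fixed in 4% paraformaldehyde, dissociated and profiled as single cells with gene-specific probes. In the Penk KO group both Penk alleles were floxed (Penk fl/fl) and in the Penk ctrl group 1 was (Penk fl/WT). Both groups carried Foxp3 CreER, received tamoxifen and had 3 days of imiquimod, a skin irritant used as a model of psoriasis-like inflammation and itch. Penk encodes the opioid peptide precursor proenkephalin, and the Cre is driven by Foxp3, the transcription factor of regulatory T cells. The sources used here give neither the number nor the sex of the pooled mice.

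There was 1 pooled library per group, 12067 barcodes for Penk KO and 15710 for Penk ctrl, with medians of 2243 and 2481 UMIs, so no difference between genotypes has a replicate check and no p-value is given. Every interval below is a 95% interval that covers counting error only. Values are UMIs and counts per 1000000 UMIs of the same cells (CPM), and since probes differ in number and efficiency between genes, levels are compared within a gene and not between genes. Cells fell into 10 sensory neuron subtypes and 8 other classes named from marker genes. In all, 4852 of 12053 kept Penk KO cells and 6258 of 15690 kept Penk ctrl cells were neurons (40.3% and 39.9%), and 13.2% and 14.2% of cells stayed unnamed. Both libraries used 4723 of the same droplet barcodes, which hold 39.2% of Penk KO cells and 30.1% of Penk ctrl cells. The targeted gene, Penk, had 4 UMIs in the Penk KO library and 582 in the Penk ctrl library, of which 1 and 341 were in neurons. Penk was thus lower in Penk KO, the group whose labels give both alleles as floxed. This held also in sensory neurons, which are not the cells that Foxp3 is known for. How Penk came to be lower in neurons was not tested. RNA of neurons was also found in other cells: the neuronal gene Snap25 had 1143 CPM in Penk KO and 1220 CPM in Penk ctrl outside the neurons, and 1614 and 1708 CPM in neurons.

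Interleukin 31 is a cytokine of T helper cells that causes itch by acting directly on sensory neurons. Its receptor pairs Il31ra, the chain that gives ligand specificity, with Osmr, which also serves as a chain of the oncostatin M receptor. Il6st (gp130) and Lifr are the shared chains through which the rest of the interleukin 6 family signals. Ligand binding activates the tyrosine kinases JAK1, JAK2 and TYK2, which phosphorylate STAT3, and STAT3 in turn induces Socs3, whose product shuts the receptor down. JAK1 inhibitors are used against itch of atopic dermatitis.

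In the mouse genome (GRCm39, GENCODE vM39) the receptor chains lie in neighbouring pairs. Il31ra (ENSMUSG00000050377) is at chr13:112656432-112730894 on the minus strand, and Il6st (ENSMUSG00000021756) at chr13:112600604-112646620 on the plus strand, with 9.8 kb and 0 protein-coding genes between them. Osmr (ENSMUSG00000022146) is at chr15:6843053-6904450 on the minus strand, and Lifr (ENSMUSG00000054263) at chr15:7120095-7226970 on the plus strand, with 215.6 kb and again 0 protein-coding genes between them. The kinases Jak1 (ENSMUSG00000028530, chr4:101008838-101122487), Jak2 (ENSMUSG00000024789, chr19:29228677-29290505) and Tyk2 (ENSMUSG00000032175, chr9:21015363-21042689) are on separate chromosomes. Stat3 (ENSMUSG00000004040, chr11:100775924-100830450) and Socs3 (ENSMUSG00000053113, chr11:117856905-117860898) share chromosome 11. Canonical transcripts had 17 exons for Il31ra, 18 for Osmr, 25 for Jak1 and 2 for Socs3.

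Il31ra, Osmr, Jak1, Stat3 and Socs3 each had their highest level among named neuron subtypes in the same subtype, described next. Of these, the promoters of Il31ra, Osmr and Jak1 are printed, both chains of the interleukin 31 receptor and a kinase that serves it. They are given as the 250 bases before the canonical transcript's start, 5′ to 3′ on the gene's strand, read from the GRCm39 genome, with any match to the STAT motif TTCNNNGAA in capitals. The windows are chr13:112717197-112717446, chr15:6904451-6904700 and chr4:101122488-101122737, all on the minus strand and without an annotated exon. The Il31ra window lies inside the gene's annotated span, since other transcripts start further upstream.
Il31ra: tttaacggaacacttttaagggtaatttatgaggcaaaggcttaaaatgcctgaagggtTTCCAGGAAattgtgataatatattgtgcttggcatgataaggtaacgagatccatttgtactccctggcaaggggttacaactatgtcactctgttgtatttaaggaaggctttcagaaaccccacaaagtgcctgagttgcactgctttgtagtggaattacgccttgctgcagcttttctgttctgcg
Osmr: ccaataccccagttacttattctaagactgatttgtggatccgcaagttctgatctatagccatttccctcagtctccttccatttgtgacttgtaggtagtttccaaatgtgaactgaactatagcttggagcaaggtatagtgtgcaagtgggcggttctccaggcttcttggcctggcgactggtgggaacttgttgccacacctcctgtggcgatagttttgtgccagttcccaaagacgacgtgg
Jak1: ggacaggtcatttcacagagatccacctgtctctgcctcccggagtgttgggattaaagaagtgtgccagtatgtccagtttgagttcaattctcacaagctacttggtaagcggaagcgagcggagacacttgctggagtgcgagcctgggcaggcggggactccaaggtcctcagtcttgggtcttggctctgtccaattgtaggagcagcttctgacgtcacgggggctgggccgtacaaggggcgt
The motif reads the same on both strands. Il31ra holds 1 match, from 191 to 183 bases before its start, while the Osmr and Jak1 windows hold none. Of the other 6 members, Jak2 (138 to 130 bases before its start) and Socs3 (223 to 215 bases before) hold 1 each. That is 3 of 9 members, where 1676 of 21770 protein-coding genes (7.70%) have a match in a window of the same length. A match is a description of the sequence, and its absence from these windows says only that the letters are not there.

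Il31ra, the specific chain of the interleukin 31 receptor, was concentrated in the Sst/Nppb pruriceptors, a small class of itch neurons marked by Nppb and Sst that relay itch to the spinal cord. This class held 267 Penk KO and 318 Penk ctrl cells, 5.50% and 5.08% of neurons, and 78.5% and 74.1% of all Il31ra UMIs. There were 7840 Il31ra UMIs in Penk KO pruriceptors and 8780 in Penk ctrl pruriceptors, which is 1546 CPM (1512 to 1581) and 1456 CPM (1426 to 1487). The Mrgpra3 pruriceptors, which detect chloroquine and came next among the named subtypes by the mean of both libraries, had 13.8 CPM in Penk KO and 30.96 CPM in Penk ctrl. Unnamed neuron cluster 6 had 42.2 CPM in Penk KO and 4.95 CPM in Penk ctrl. In Penk KO 5 of its cells held 91.0% of its 133 Il31ra UMIs. The Sst/Nppb class stood 112-fold above the Mrgpra3 pruriceptors in Penk KO and 47.0-fold in Penk ctrl. Il31ra, Osmr and Jak1 took no part in the naming of clusters, and none of the 9 members was used to cluster the cells.

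Within the Sst/Nppb pruriceptors Il31ra was widespread. At least 1 UMI was found in 247 of 267 Penk KO cells (92.5%, 88.7 to 95.4) and 299 of 318 Penk ctrl cells (94.0%, 90.8 to 96.4). The 20 Penk KO and 19 Penk ctrl cells without one were shallow, with medians of 886 and 1205 UMIs against class medians of 12016 and 13407. All 165 Penk KO and all 209 Penk ctrl cells with at least 5000 UMIs had both Il31ra and Osmr. The level per cell spread widely. In Penk KO the lower end of the middle 80% of cells, the median and its upper end were 356, 1446 and 2461 CPM, and in Penk ctrl they were 419, 1361 and 2126 CPM.

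**Figure D1:**
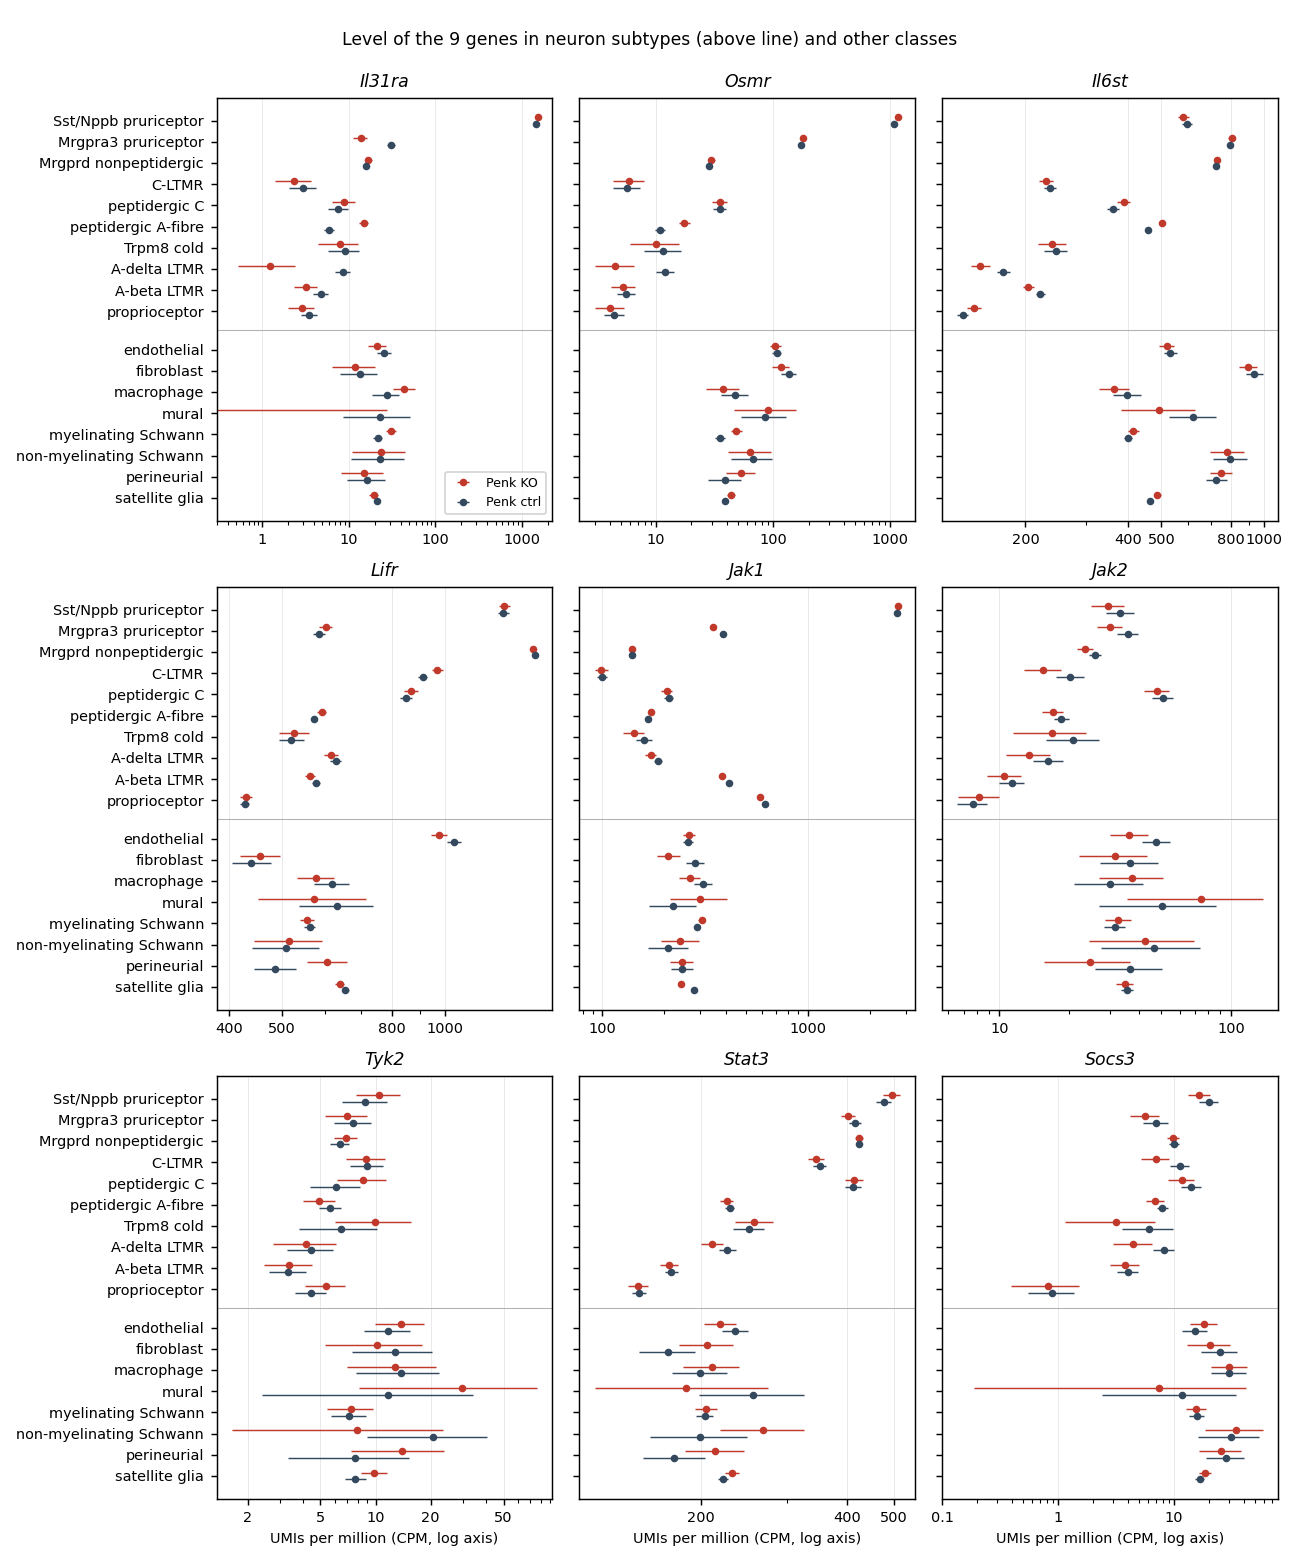
Level of each of the 9 members (CPM, log axis, 1 panel per gene) in 10 neuron subtypes and 8 other classes, Penk KO and Penk ctrl as separate points with exact Poisson 95% intervals. Il31ra, Osmr and Jak1 stand highest in Sst/Nppb pruriceptors in both libraries (1546 and 1456 CPM for Il31ra), while Lifr and Il6st are spread over most classes. A library with 0 UMIs, as mural Il31ra in Penk KO, has no point.

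The other 9 named subtypes had between 1.23 and 17.0 CPM of Il31ra in Penk KO and between 3.01 and 30.96 CPM in Penk ctrl. In order of the mean of both libraries they ran from Mrgpra3 pruriceptors through Mrgprd nonpeptidergic, peptidergic A-fibre, Trpm8 cold, peptidergic C, A-delta LTMR, A-beta LTMR and proprioceptor neurons to C-LTMRs, where LTMR is a low-threshold mechanoreceptor. Only the first of the 9 steps in that order, from Sst/Nppb to Mrgpra3 neurons, had separate counting intervals in both libraries. Proprioceptors, which sense muscle length and were set as the type that should lack the receptor, had 2.89 CPM in Penk KO and 3.51 CPM in Penk ctrl, with a UMI in 4.77% and 6.29% of cells at median depths of 4724 and 6886 UMIs. The C-LTMR share, 4.20% and 5.50%, was at or below that of proprioceptors and is read as background. Peptidergic C neurons had a UMI in 5.91% of cells in each library, at lower median depths of 3866 and 4781 UMIs, and 8.86 and 7.63 CPM. Trpm8 cold neurons had one in 7.14% and 6.48% of cells (7.89 and 8.98 CPM), and A-beta LTMRs in 5.65% and 7.74% (3.23 and 4.77 CPM). Shares depend on depth, so a share near that of proprioceptors is not by itself an equal level.

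Much of the Il31ra outside the Sst/Nppb pruriceptors sat in a few barcodes. In Mrgprd neurons, which sense mechanical pain, 7 Penk KO barcodes and 11 Penk ctrl barcodes with at least 10 UMIs each held 226 of 464 and 317 of 654 Il31ra UMIs. In peptidergic A-fibre neurons, fast nociceptors marked by Calca, 4 Penk KO barcodes held 158 of 299 UMIs and 1 Penk ctrl barcode held 11 of 222. In Mrgpra3 pruriceptors there was no such barcode in Penk KO, and 2 in Penk ctrl held 153 of 311. Every barcode of the other 9 subtypes with at least 10 Il31ra UMIs also had a UMI of Nppb. In Mrgprd neurons 6 of the 7 Penk KO and 9 of the 11 Penk ctrl barcodes were droplet barcodes used by both libraries. So were 2 of the 4 and 1 of 1 in peptidergic A-fibre neurons, and 2 of 2 in Mrgpra3 pruriceptors of Penk ctrl. Among Sst/Nppb pruriceptors with at least 10 Il31ra UMIs it was 52 of 148 and 46 of 188, and over all cells 39.2% and 30.1%. Estimated multiplets made up 16.8% of Penk KO and 22.8% of Penk ctrl cells. The part of multiplets and of shared droplets in these barcodes was not tested.

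Without the cells that had an Nppb UMI, the levels drew together. Mrgpra3 pruriceptors then had 13.6 CPM of Il31ra in Penk KO and 16.01 CPM in Penk ctrl. Mrgprd neurons had 6.13 CPM in Penk KO and 7.09 CPM in Penk ctrl, and peptidergic A-fibre neurons 5.17 and 4.70 CPM. Proprioceptors had 2.41 and 2.36 CPM. These cells were chosen after the values had been seen. Over all neurons outside the Sst/Nppb class and without an Nppb UMI, the level was 4.84 CPM in Penk KO and 4.74 CPM in Penk ctrl, a ratio of 1.02 (0.914 to 1.14).

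Osmr, the chain that Il31ra pairs with, was also highest in the Sst/Nppb pruriceptors, but less exclusively so. There were 5952 Osmr UMIs in Penk KO and 6495 in Penk ctrl, 1174 CPM (1144 to 1204) and 1077 CPM (1051 to 1104), and the class held 51.3% and 46.6% of all Osmr UMIs. A UMI was found in 94.4% and 93.7% of the cells. The Mrgpra3 pruriceptors came next with 1496 UMIs (179 CPM) in Penk KO and 1736 UMIs (173 CPM) in Penk ctrl, and a UMI in 75.7% and 71.6% of cells. In proprioceptors the levels were 4.04 and 4.36 CPM, and the share with a UMI 6.13% and 7.08%. Mrgpra3 neurons thus had Osmr at many times the proprioceptor level in both libraries, with little Il31ra.

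Peptidergic C neurons, slow nociceptors marked by Tac1, had 34.9 CPM of Osmr in Penk KO and 35.0 CPM in Penk ctrl, and Mrgprd neurons 29.5 and 28.5 CPM. Unnamed neuron cluster 8 had 123 CPM in Penk KO and 121 CPM in Penk ctrl, with a UMI in 82.3% and 77.8% of cells. Of the 9 steps in the order of subtypes, 3 had separate intervals in both libraries. The lower end, Trpm8 cold, A-delta LTMR, C-LTMR, A-beta LTMR and proprioceptor neurons, had between 4.04 and 9.99 CPM in Penk KO and between 4.36 and 11.9 CPM in Penk ctrl.

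Outside the neurons, Osmr had its highest levels in cells of connective tissue and vessels. Fibroblasts had 136 UMIs (116 CPM) in Penk KO and 180 UMIs (135 CPM) in Penk ctrl. Endothelial cells had 334 UMIs (104 CPM) and 458 UMIs (107 CPM), with a UMI in 34.0% and 37.6% of cells. Mural cells, which ring small vessels, had 12 and 22 UMIs (89.4 and 85.4 CPM). Satellite glia, which wrap neuronal cell bodies, had 43.6 CPM in Penk KO and 38.9 CPM in Penk ctrl. The intervals of each class overlapped those of the next class in the order in at least 1 library.

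For Il31ra the 8 classes outside the neurons were less distinct. They had between 0 and 43.8 CPM in Penk KO and between 13.5 and 27.5 CPM in Penk ctrl, and no 2 classes next to each other in the order were apart in both libraries. In mural cells 0 UMIs were found in Penk KO, which allows a share of up to 2.36% of cells with a UMI (3 counts of the cells, at a median of 709 UMIs per cell), and 6 UMIs in Penk ctrl. Nppb, which these cells are not known to make, had 16.6 CPM outside the neurons in Penk KO and 15.6 CPM in Penk ctrl, in 4.53% and 4.26% of cells. For each 100 Nppb UMIs there were 140 Il31ra UMIs in Sst/Nppb pruriceptors of Penk KO and 143 in those of Penk ctrl. The same figure was 159 and 137 in satellite glia, 127 and 154 in myelinating Schwann cells, and 147 and 157 in endothelial cells. All 3 have counting intervals that include the pruriceptor value in both libraries. In other neurons the Il31ra figure was 218 and 217 in Mrgprd, 237 and 231 in peptidergic A-fibre and 94.0 and 108 in peptidergic C neurons. Osmr had 711 and 654 UMIs per 100 Nppb UMIs in endothelial cells against 107 and 105 in the pruriceptors. In macrophages it had 132 (80.9 to 218) in Penk KO and 183 (115 to 296) in Penk ctrl. Where the Il31ra of cells outside the neurons came from was not tested.

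**Figure D2:**
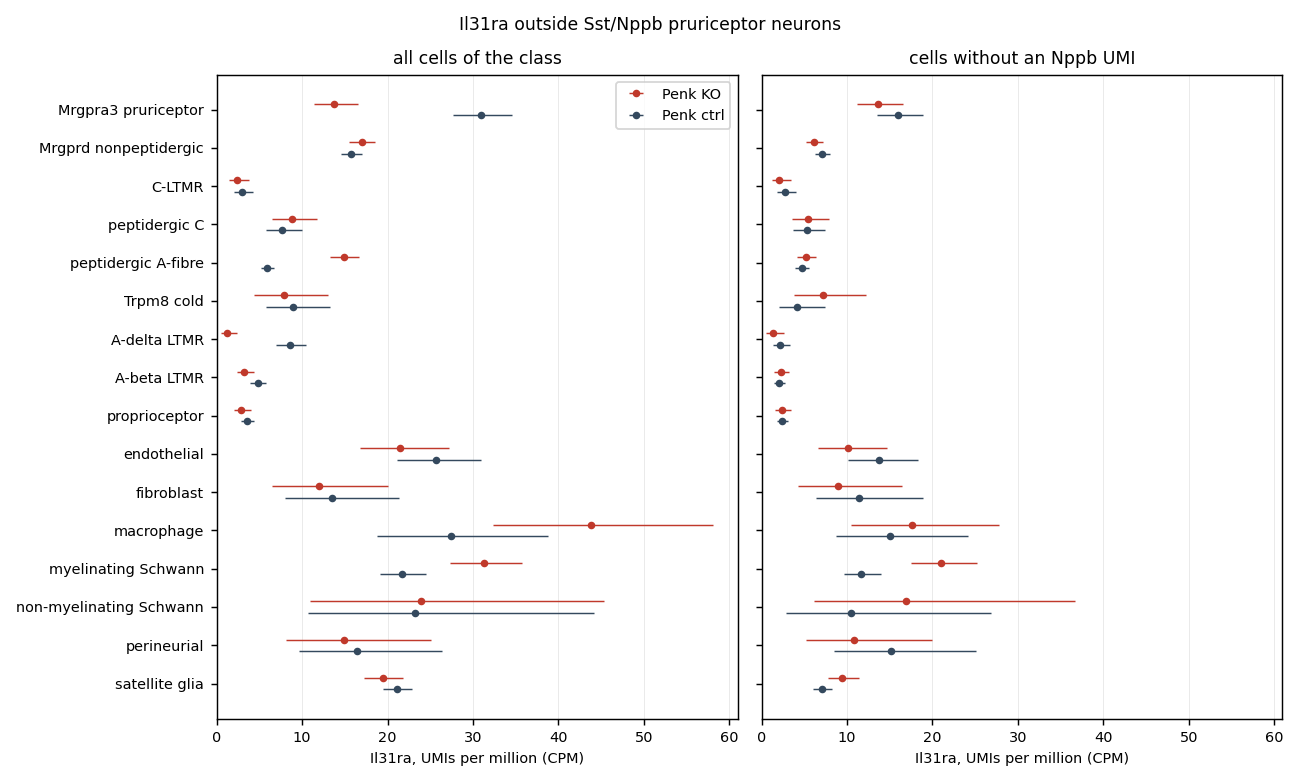
Il31ra level outside the Sst/Nppb pruriceptors for Penk KO and Penk ctrl, over all cells of each class and over cells without an Nppb UMI, with 95% counting intervals. Leaving out cells with an Nppb UMI lowers the level of peptidergic A-fibre neurons to 5.17 CPM in Penk KO and 4.70 CPM in Penk ctrl, against 14.9 and 5.89 CPM over all their cells.

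Both chains were found in the same cells. In the Sst/Nppb class, 238 of 267 Penk KO cells (89.1%) and 285 of 318 Penk ctrl cells (89.6%) had a UMI of each. Osmr was detected in 96.4% of Penk KO and 95.3% of Penk ctrl cells with Il31ra, and in 70.0% and 68.4% of the few without. Once each cell was thinned to 500 UMIs, Osmr was found in 46.4% and 47.9% of cells with Il31ra and in 47.4% and 43.8% of those without. The counting intervals of these thinned shares overlapped in both libraries. Among Mrgpra3 pruriceptors, Osmr was detected in 96.6% of Penk KO and 90.1% of Penk ctrl cells with Il31ra, and in 69.3% and 63.9% of those without, before thinning.

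**Figure D3:**
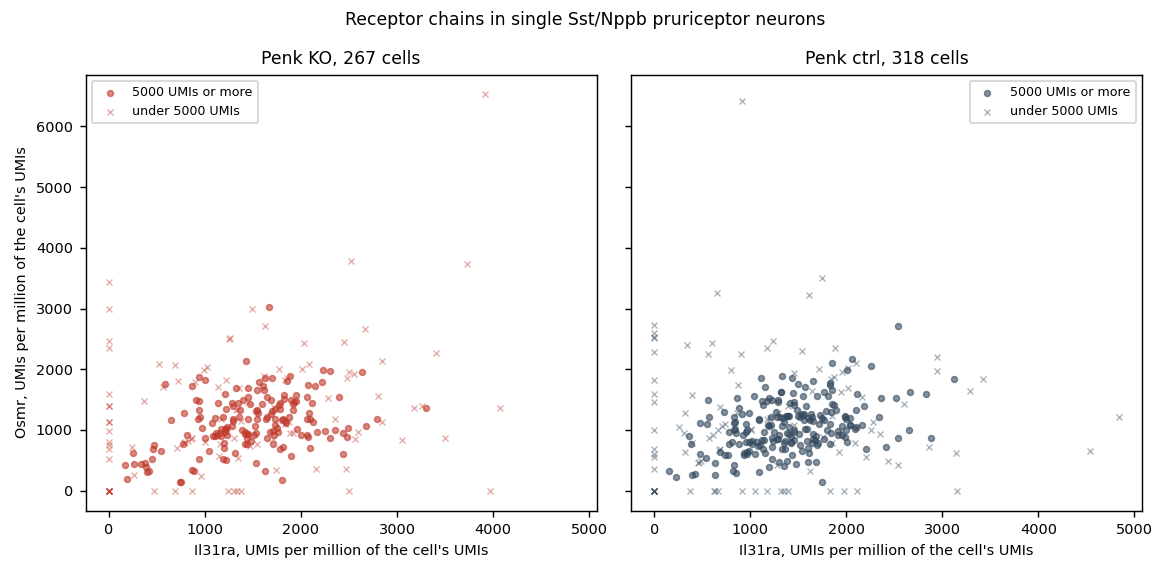
Il31ra against Osmr (CPM) in each single Sst/Nppb pruriceptor, Penk KO on the left and Penk ctrl on the right. Every cell of at least 5000 UMIs (165 in Penk KO, 209 in Penk ctrl) has both chains, and the cells on the axes are shallower ones.

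Jak1, a kinase of the interleukin 31 receptor and of most other cytokine receptors, had the same leading class. Sst/Nppb pruriceptors had 13974 Jak1 UMIs in Penk KO (2756 CPM) and 16361 in Penk ctrl (2714 CPM), with a UMI in 94.8% and 98.1% of cells. They made up 2.22% of Penk KO and 2.03% of Penk ctrl cells, and held 25.4% and 18.1% of all Jak1 UMIs. Of the named subtypes proprioceptors came second with 585 CPM in Penk KO and 618 CPM in Penk ctrl. Unnamed neuron cluster 6 had 645 and 614 CPM. The leading class stood 4.71-fold and 4.39-fold above the proprioceptors. C-LTMRs had the lowest level, 98.6 and 99.5 CPM. Of the 9 steps in the order, 6 had separate intervals in both libraries. The other classes had between 209 and 304 CPM in Penk KO and between 209 and 309 CPM in Penk ctrl.

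Jak2, the kinase that also serves growth hormone and interferon gamma receptors, followed another order. Peptidergic C neurons had the highest level among subtypes, 254 UMIs (47.9 CPM) in Penk KO and 353 UMIs (50.8 CPM) in Penk ctrl. Mrgpra3 and Sst/Nppb pruriceptors came next and their intervals overlapped, with 30.1 and 35.8 CPM in Mrgpra3 neurons and 29.4 and 33.3 CPM in Sst/Nppb neurons of Penk KO and Penk ctrl. Proprioceptors were lowest at 8.16 and 7.66 CPM. Tyk2, which pairs with gp130 and interferon receptors, was sparse. It had 53 UMIs in Sst/Nppb pruriceptors of each library (10.5 and 8.79 CPM), and none of the 9 steps between subtypes was separate in both libraries.

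Stat3, the transcription factor at the end of the pathway, was widely detected, with a UMI in 75.7% of Penk KO and 79.3% of Penk ctrl neurons. Sst/Nppb pruriceptors had the highest level, 2506 UMIs (494 CPM) in Penk KO and 2869 UMIs (476 CPM) in Penk ctrl. Mrgprd, peptidergic C and Mrgpra3 neurons followed, each with an interval that overlapped that of the next, between 402 and 423 CPM in Penk KO and between 411 and 424 CPM in Penk ctrl. A-beta LTMRs (172 and 173 CPM) and proprioceptors (148 and 149 CPM) were lowest. Socs3, the feedback inhibitor, had 84 UMIs (16.6 CPM) in Sst/Nppb pruriceptors of Penk KO and 120 UMIs (19.9 CPM) in those of Penk ctrl. Peptidergic C neurons had 11.7 and 14.1 CPM, with counting intervals that overlapped those of the first, and proprioceptors 0.824 and 0.889 CPM. Non-myelinating Schwann cells (34.5 and 31.004 CPM) and macrophages (30.1 and 30.0 CPM) had the highest Socs3 levels outside the neurons, on 13 and 12 UMIs and on 33 and 35 UMIs.

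The 2 shared chains had other leading classes than Il31ra and Osmr. Il6st was highest among the named subtypes in Mrgpra3 pruriceptors, with 802 CPM in Penk KO and 794 CPM in Penk ctrl. Mrgprd neurons (729 and 720 CPM) and Sst/Nppb pruriceptors (579 and 595 CPM) came next. Unnamed neuron cluster 8 had 929 and 861 CPM. Proprioceptors had 142 and 131 CPM. Fibroblasts led the other classes with 894 and 935 CPM. Lifr was highest in Mrgprd neurons, 39737 UMIs (1453 CPM) in Penk KO and 61073 UMIs (1468 CPM) in Penk ctrl. Sst/Nppb pruriceptors came second with 1287 and 1282 CPM, and proprioceptors last with 430 and 428 CPM. Endothelial cells led the other classes with 976 CPM in Penk KO and 1038 CPM in Penk ctrl.

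Members that act together were also counted in single cells. A UMI of each of Il31ra, Osmr, Jak1 and Stat3 was present in 209 of 267 Sst/Nppb cells of Penk KO (78.3%) and 254 of 318 of Penk ctrl (79.9%). The share was 21.9% and 26.1% in Mrgpra3 pruriceptors, 9.52% and 10.6% in Mrgprd neurons, and 1.02% and 1.31% in proprioceptors. All 9 members were found in 15 Penk KO and 12 Penk ctrl Sst/Nppb cells, in 15 and 20 Mrgprd cells, in 5 and 13 Mrgpra3 cells, and in 10 and 20 peptidergic A-fibre cells. Depth differs between these subtypes, so the shares are not levels.

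Over the 18 named classes, and on the scale log2(CPM + 5), the 5 genes most like Il31ra were Nppb (Pearson r of 0.966), Ada (0.959), Sst (0.952), Nts (0.946) and Cysltr2 (0.929), among 13502 genes with at least 200 UMIs. Nppb, Sst, Nts and Cysltr2 are markers by which the Sst/Nppb class was named, and Ada, adenosine deaminase, is not. For Osmr they were Fmo5 (0.919), Cysltr2 (0.896), Hspa1b (0.887), Pxmp2 (0.884) and Ppil6 (0.882). Between members, r was 0.825 for Il31ra and Osmr and 0.768 for Il31ra and Jak1. The classes share their 2 libraries, and 1 class carries most of each value.

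In all neurons summed, 2 of the 9 members were at least 25% higher in Penk KO than in Penk ctrl, and none was at least 20% lower, the limits used for all counts below. A gene entered this count with at least 200 UMIs over both libraries in the class. Among the 12898 genes that did, 2.06% were that much higher and 2.91% that much lower. Il31ra had 9253 UMIs (73.3 CPM) in Penk KO neurons and 10709 UMIs (51.6 CPM) in Penk ctrl neurons, a ratio of 1.42 (1.38 to 1.46). Osmr had 9945 UMIs (78.7 CPM) and 11454 UMIs (55.2 CPM), a ratio of 1.43 (1.39 to 1.47). Sst/Nppb pruriceptors held 4.02% of neuronal UMIs in Penk KO and 2.90% in Penk ctrl. Within that class the ratio was 1.06 (1.03 to 1.09) for Il31ra and 1.09 (1.05 to 1.13) for Osmr. In the neurons outside it the ratio was 1.22 (1.14 to 1.31) for Il31ra and 1.34 (1.28 to 1.40) for Osmr. Those without an Nppb UMI had 1.02 (0.914 to 1.14) for Il31ra and 1.28 (1.22 to 1.34) for Osmr. Mrgpra3 pruriceptors held 6.61% of neuronal UMIs in Penk KO and 4.84% in Penk ctrl, and unnamed neuron cluster 8 3.58% and 2.34%. Their own Osmr ratios were 1.04 (0.967 to 1.11) and 1.02 (0.903 to 1.14). In unnamed clusters 22 and 6 the Osmr ratio was 2.22 and 3.48. There, 5 cells each held 63.4% and 74.8% of the Penk KO Osmr UMIs. Over the 10 named subtypes it ran from 0.374 to 1.63. The part of subtype make-up in these ratios was not tested. With each subtype given equal weight the ratio was 0.779 for Il31ra and 0.944 for Osmr, on the other side of 1. In that mean A-delta LTMRs weigh heavily, with an Il31ra ratio of 0.143 on 8 and 95 UMIs, and without them it was 0.940 for Il31ra and 1.05 for Osmr.

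The other 7 members stayed within these limits in all neurons. Il6st had a ratio of 1.09, with 450 CPM in Penk KO and 412 CPM in Penk ctrl. For Lifr it was 1.06, with 834 and 788 CPM, and for Stat3 it was 1.06, with 293 and 277 CPM. Jak1 had 373 and 365 CPM, a ratio of 1.02, and 273 and 295 CPM outside the Sst/Nppb class, a ratio of 0.928. Jak2 had 19.6 CPM in Penk KO and 20.6 CPM in Penk ctrl (0.9501), and Tyk2 had 6.23 and 5.52 CPM (1.13).

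Socs3 had 863 UMIs (6.83 CPM) in Penk KO neurons and 1581 UMIs (7.62 CPM) in Penk ctrl neurons, a ratio of 0.897 (0.825 to 0.975). It was lower in Penk KO in each of the 10 subtypes, on ratios between 0.516 and 0.971, with a geometric mean of 0.767. The interval of the ratio left out 1 in C-LTMRs (6.93 CPM in Penk KO and 11.2 CPM in Penk ctrl, 0.620) and in A-delta LTMRs (4.46 and 8.23 CPM, 0.542). Jak2 was lower in Penk KO in 9 of the 10, with a geometric mean of 0.883. The subtypes share their 2 libraries, so these directions are not independent checks. The share of all genes that were lower in as many subtypes is not given here. These means weigh sparse subtypes as much as others, such as Trpm8 cold neurons with 6 Penk KO and 17 Penk ctrl Socs3 UMIs. Neurons of the Penk KO library were shallower, with a median of 8139 UMIs against 11460 in Penk ctrl. Thinned to 500 UMIs, Socs3 had a ratio of 1.06 in all neurons and Jak2 one of 1.49, but few UMIs were left. Socs3 was then found in 26 Penk KO and 33 Penk ctrl neurons (0.536% and 0.527%), and Jak2 in 74 and 64 (1.53% and 1.02%), with overlapping intervals for both. The part of depth in these ratios was not tested.

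**Figure D4:**
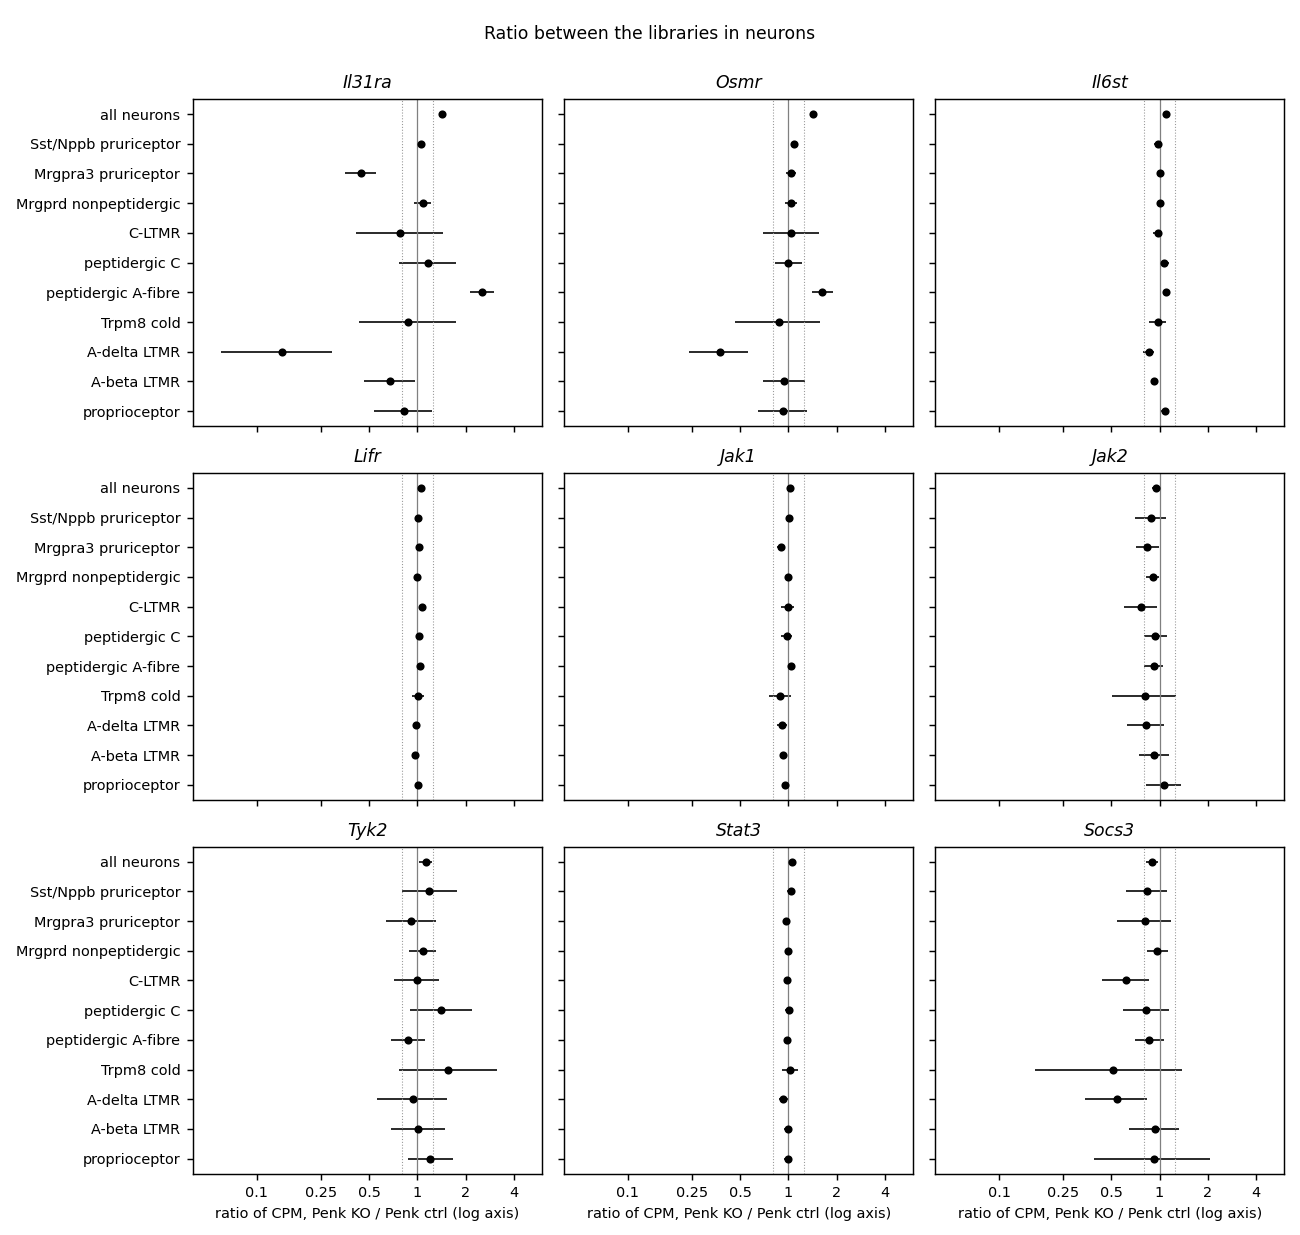
Ratio of Penk KO to Penk ctrl CPM (log axis) of each member in all neurons and in each neuron subtype, with 95% counting intervals and lines at 1 and at the limits of 20% lower and 25% higher. Il31ra and Osmr pass the upper limit in all neurons (1.42 and 1.43) but not in Sst/Nppb pruriceptors (1.06 and 1.09). Socs3 lies below 1 in all 10 subtypes, which share their libraries, and only in C-LTMRs and A-delta LTMRs does its interval leave out 1.

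In Sst/Nppb pruriceptors alone, none of the 8 members with enough UMIs passed either limit. Over all 7522 genes measured that deeply there, 1.7% were higher and 3.43% lower by that much. The ratios of the 8 members ran from 0.832 (0.622 to 1.11) for Socs3 to 1.09 for Osmr, and Jak2 had 0.881 (0.708 to 1.09). The intervals of Socs3, Jak2, Jak1 (1.02), Lifr (1.00), Stat3 (1.04) and Il6st (0.974) included 1, and those of Il31ra and Osmr did not. Tyk2 had too few UMIs to count. Thinned to 500 UMIs, Il31ra was found in 57.3% of Penk KO cells (51.1 to 63.3) and 44.0% of Penk ctrl cells (38.5 to 49.7), and Osmr in 46.8% and 45.6%. The thinned share of Il31ra moved more than its CPM, whose thinned ratio was 1.14.

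Il31ra differed between the libraries in several subtypes where a few barcodes of 1 library held many of its UMIs. In peptidergic A-fibre neurons it had 14.9 CPM in Penk KO and 5.89 CPM in Penk ctrl, a ratio of 2.53 (2.12 to 3.02), and in cells without an Nppb UMI 1.10 (0.839 to 1.44). In Mrgpra3 pruriceptors it had 115 UMIs in Penk KO and 311 in Penk ctrl, a ratio of 0.445 (0.356 to 0.553), and in cells without an Nppb UMI 0.851 (0.653 to 1.11). In A-delta LTMRs it had 8 and 95 UMIs, and 1 Penk ctrl barcode held 71 of the 95. Osmr in peptidergic A-fibre neurons had 17.4 CPM in Penk KO and 10.7 CPM in Penk ctrl, a ratio of 1.63 (1.41 to 1.88), and 1.21 without Nppb cells. Within that class, a cluster that leaned to Penk ctrl had 91 Penk KO and 352 Penk ctrl cells. It held 138 of the 299 and 147 of the 222 Il31ra UMIs.

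The same count was made in 5 classes outside the neurons. In myelinating Schwann cells, which insulate axons, 2 of 8 members were higher in Penk KO, where 2.82% of genes were higher and 1.95% lower. They were Il31ra (31.3 CPM in Penk KO and 21.7 CPM in Penk ctrl, 1.44) and Osmr (48.2 and 35.3 CPM, 1.37). Without Nppb cells Il31ra had 21.1 and 11.6 CPM there, on 119 UMIs in each library, a ratio of 1.81 (1.39 to 2.35). Over all cells outside the neurons its ratio was 1.09 (0.992 to 1.20), and 1.34 (1.16 to 1.54) without Nppb cells. The myelinating Schwann class joins 2 clusters. In the deeper one the ratio was 1.49 for both Il31ra (1.22 to 1.82) and Osmr (1.27 to 1.74), and in the shallower one it was 1.20 (0.680 to 2.08) for Il31ra and 0.741 (0.463 to 1.16) for Osmr, on 30 Penk KO and 62 Penk ctrl UMIs. In satellite glia 1 of 9 was higher, Tyk2 with 9.81 and 7.74 CPM (1.27, 1.02 to 1.57), where 3.79% of genes were higher and 2.65% lower. In endothelial cells 1 of 6 was lower, Jak2 with 36.4 CPM in Penk KO and 47.4 CPM in Penk ctrl (0.768), where 4.17% of genes were higher and 5.19% lower. In fibroblasts 1 of 5 was lower, Jak1 with 246 UMIs (209 CPM) and 377 UMIs (283 CPM), a ratio of 0.740 (0.627 to 0.871), where 8.56% of genes were higher and 8.25% lower. These fibroblasts included 22 Penk KO cells and 1 Penk ctrl cell, deeper than the rest with a median of 3431 UMIs in Penk KO, that a finer clustering set apart. Without them 6.09% of genes were higher and 5.89% lower, Jak1 had a ratio of 0.773 (0.654 to 0.912), and Stat3 passed the upper limit, with 218.8 CPM in Penk KO and 170.2 CPM in Penk ctrl (1.29, against 1.20 with them). In macrophages none of 4 passed, where 5.44% were higher and 5.34% lower.

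Of the ligands that act on these receptors, few were made in the ganglion at a level that could be measured. Il31 itself had 1 UMI in Penk KO and 3 in Penk ctrl over all cells, and none in neurons. Osm, the other ligand of Osmr, had 7 and 5 UMIs, of which 5 and 3 were in macrophages. Lif had 58 and 81 UMIs over all cells, with fibroblasts highest on 18 and 10 UMIs. Il6 had 145 UMIs in Penk KO and 240 in Penk ctrl (0.927 and 0.926 CPM), most of them in neurons, and peptidergic C neurons were highest with 3.77 and 6.33 CPM. Il11 had 29 and 59 UMIs, and Il27 had 8 and 15. Ebi3, a subunit of interleukin 27, had 63.9 CPM in Penk KO macrophages and 56.6 CPM in Penk ctrl macrophages. At a few UMIs per class, the cells that made these ligands were not resolved.

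Cntf, a neuronal survival factor that acts through Cntfr, Lifr and Il6st, was the most deeply counted ligand. Myelinating Schwann cells had 3625 UMIs (520 CPM) in Penk KO and 6008 UMIs (507 CPM) in Penk ctrl, a ratio of 1.03 (0.986 to 1.07). In endothelial cells it had 240 UMIs (74.7 CPM) and 569 UMIs (133 CPM), a ratio of 0.562 (0.481 to 0.654), and in neurons 6.68 and 8.35 CPM, with an interval of the ratio of 0.736 to 0.869. Ctf1 had 1.73 CPM in Penk KO neurons and 1.51 CPM in Penk ctrl neurons. Clcf1, a further ligand of Cntfr, had 136 UMIs in Penk KO and 327 in Penk ctrl over all cells, a ratio of 0.689 (0.560 to 0.844).

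Other receptor chains of the family were sparse in neurons apart from Cntfr. This chain had 8295 UMIs (65.7 CPM) in Penk KO neurons and 15464 UMIs (74.5 CPM) in Penk ctrl neurons, a ratio of 0.882. It was low in both itch classes, with 11.6 and 15.1 CPM in Sst/Nppb pruriceptors and 8.27 and 9.85 CPM in Mrgpra3 pruriceptors, against 288 and 265 CPM in satellite glia. Lepr, the leptin receptor, was lower in Penk KO neurons, with 161 UMIs (1.27 CPM) against 346 UMIs (1.67 CPM) in Penk ctrl neurons, a ratio of 0.765 (0.630 to 0.925), and was highest in perineurial cells at 102 and 108 CPM. Il6ra had 0.594 CPM in Penk KO neurons and 0.732 CPM in Penk ctrl neurons, and in macrophages 82.2 and 113 CPM, a ratio of 0.725 (0.549 to 0.955). Csf3r was highest in macrophages with 98.6 and 89.2 CPM, and Il27ra had 35 and 60 UMIs over all cells. Il11ra1 was not among the symbols used here.

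**Figure D5:**
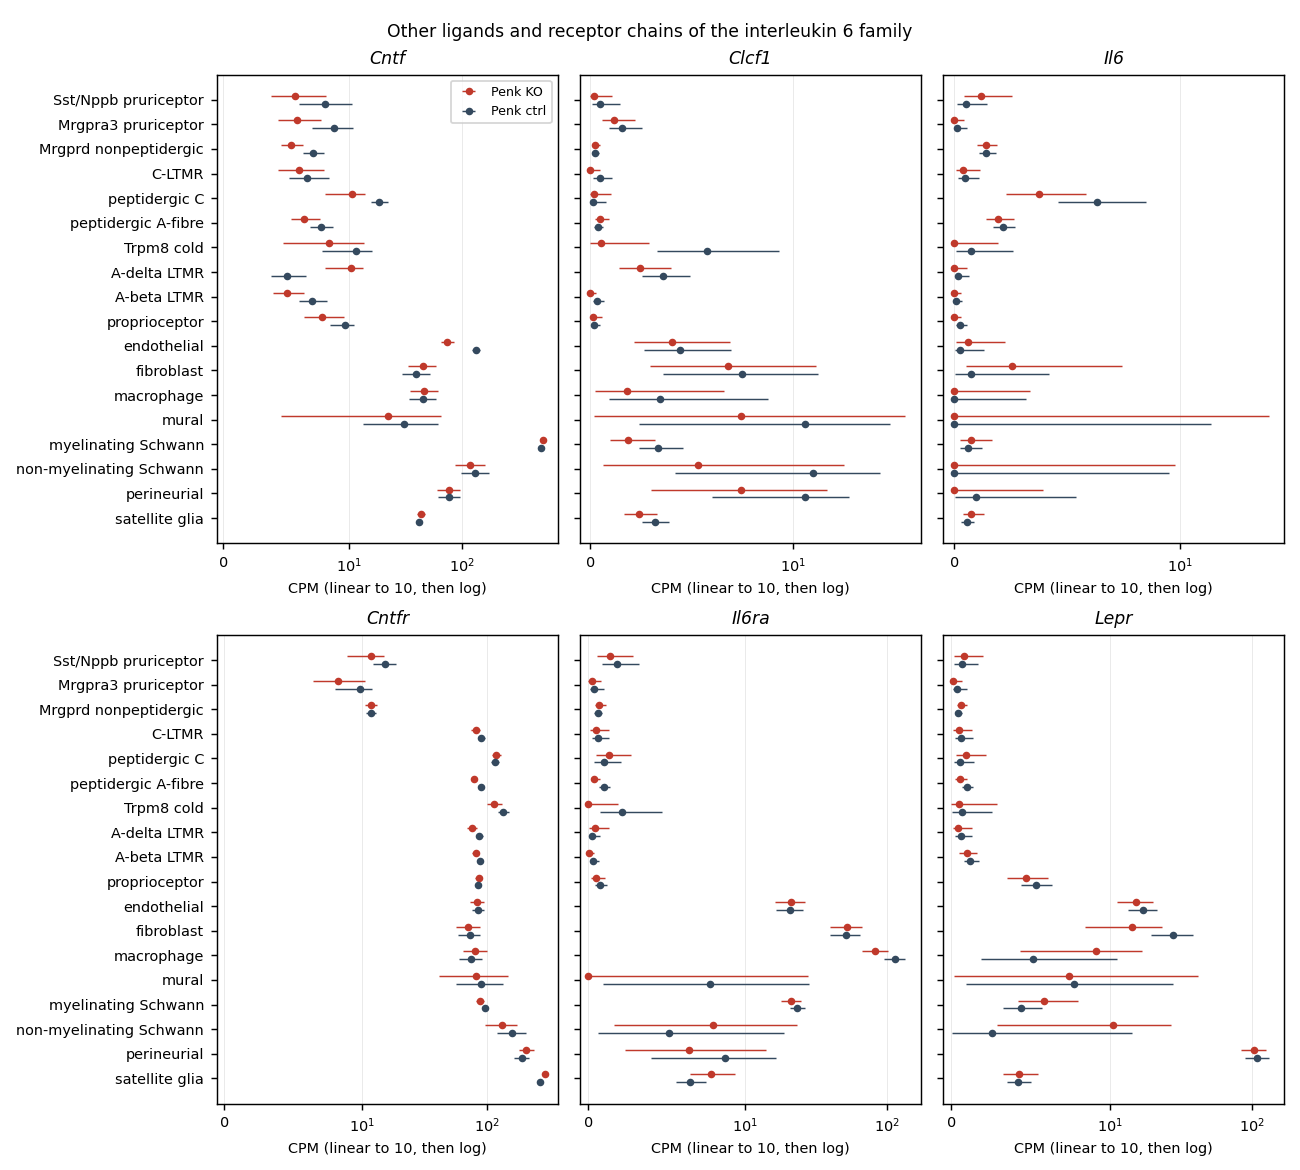
Levels (CPM) of other ligands and receptor chains of the interleukin 6 family in named classes, Penk KO and Penk ctrl side by side with 95% counting intervals. Each panel is 1 gene, on an axis that is linear at its low end and then log. Cntf is highest in myelinating Schwann cells (520 CPM in Penk KO and 507 CPM in Penk ctrl), and Cntfr has 288 and 265 CPM in satellite glia.

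The wider pathway was read from 6 lists of 103 measured genes. In all neurons, none of 3 ligands with enough UMIs passed a limit, although the interval of the Cntf ratio given above reached past the lower one. Of 3 other receptor chains of the family 1 passed (Lepr, lower). Single calls per list such as this are read against the 2.06% of all genes that were higher and the 2.91% that were lower in neurons. Of 15 other cytokine receptor chains 1 was higher, Prlr, the prolactin receptor, with 2.74 CPM in Penk KO and 2.18 CPM in Penk ctrl (1.26, 1.09 to 1.45). None of 13 other kinases, STATs and adaptors passed, and the interferon signalling genes Stat2 (118 and 97.7 CPM, 1.21) and Irf9 (56.2 and 47.3 CPM, 1.19) came nearest. Of 18 inhibitors 1 was higher, Ptpn6, the phosphatase SHP-1, with 645 UMIs (5.11 CPM) in Penk KO and 623 UMIs (3.00 CPM) in Penk ctrl, a ratio of 1.70 (1.52 to 1.90). Most of it lay in Mrgpra3 pruriceptors, with 56.3 CPM in Penk KO and 39.0 CPM in Penk ctrl, a ratio of 1.44 (1.26 to 1.65). Of 21 genes listed as STAT3 targets 1 was lower, Lcn2, an acute-phase lipocalin, with 65 UMIs (0.515 CPM) and 191 UMIs (0.920 CPM), a ratio of 0.559 (0.415 to 0.745). The median ratio of the STAT3 targets was 0.954 and that of the 9 members 1.06, beside 0.998 over all genes counted.

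In Sst/Nppb pruriceptors none of 11 STAT3 targets passed, and their median ratio was 0.895, beside 0.994 over all genes counted there. Serpina3n, a secreted protease inhibitor, was the most deeply counted of them, with 7518 UMIs (1482 CPM) in Penk KO and 10785 UMIs (1788 CPM) in Penk ctrl, a ratio of 0.829 (0.805 to 0.854). In this class 3.43% of all genes counted were lower by at least the limit and 1.7% higher. The inhibitor Socs5 (46.9 CPM in Penk KO and 62.4 CPM in Penk ctrl, 0.753) and the interferon receptor chain Ifnar2 (28.8 and 36.5 CPM, 0.789) were lower by more than the limit. Socs5 and Ifnar2 are given as single genes and not as a result about their lists. The genes named in this paragraph and the next were chosen after their values were seen.

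In endothelial cells 5 of 18 STAT3 targets were lower and none higher, where 5.19% of all genes were lower and 4.17% higher: Ier3, Myc, Junb, Vegfa and Serpina3n. Ier3, an immediate early gene, had the lowest ratio, with 219 UMIs (68.2 CPM) in Penk KO and 528 UMIs (123 CPM) in Penk ctrl (0.552, 0.470 to 0.648). In satellite glia 3 of 22 were higher and 1 lower, where 3.79% and 2.65% of all genes were. Timp1, an inhibitor of metalloproteinases, had 207 UMIs (13.8 CPM) and 237 UMIs (8.12 CPM) there, a ratio of 1.70 (1.41 to 2.06). Gfap, the filament of reactive glia, had 9.48 and 7.13 CPM (1.33), Ccnd1 had 60.7 and 45.4 CPM (1.34), and Zfp36, which was lower, 34.7 and 43.4 CPM (0.7996). In fibroblasts 1 of 7 was higher and 1 lower, where 8.56% and 8.25% of all genes were. Timp1 had 228 UMIs (194 CPM) in Penk KO fibroblasts and 31 UMIs (23.3 CPM) in Penk ctrl fibroblasts, a ratio of 8.34 (5.71 to 12.6), and Bcl6 had 65.5 and 93.8 CPM (0.698). The small cluster of 22 Penk KO cells and 1 Penk ctrl cell held 159 and 9 of these Timp1 UMIs, and without it Timp1 had 69 UMIs (63.97 CPM) and 22 UMIs (16.6 CPM), a ratio of 3.86 (2.36 to 6.55). In macrophages none of 7 passed, where 5.44% of all genes were higher and 5.34% lower. In myelinating Schwann cells 1 of 17 was lower, where 1.95% of all genes were, Bcl2l1 (123 and 155 CPM, 0.795).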

How the data were processed

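Gene counts (UMIs) of 2 pooled libraries were used as deposited by the authors. Per the file headers they come from Cell Ranger 8.0.1, while the labels' protocols name Cell Ranger 7.0. The build is GRCm39, per the submitters' processing notes, which also name Seurat without a role. Per the labels the assay is fixed single-cell RNA profiling with probes, and the series text speaks of single nuclei. Deposited gene symbols and barcodes were used as they are.

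Filtering at 500 UMIs and 300 genes per cell left nearly all barcodes (12053 Penk KO and 15690 Penk ctrl cells of 12067 and 15710), with 156441497 and 259136217 UMIs in the libraries. Counts were clustered in scanpy 1.11.5 (3000 variable genes without the 9 members and the pathway lists, 40 components, 15 neighbours, Leiden resolution 1.0), and neurons were clustered again. Clusters were scored against the markers of 27 cell types. The limits on score and lead, and the definition of a neuron as a cluster whose best type is a sensory neuron subtype, were chosen once clusters were known. Of all cells, 13.2% in Penk KO and 14.2% in Penk ctrl stayed unnamed, and a meningeal class was too small to use. No doublets were removed, since the automatic threshold of Scrublet called 5151 and 0 cells.

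UMIs were summed per class and library. Intervals are exact Poisson for levels, Clopper-Pearson for shares and conditional binomial for ratios of Penk KO to Penk ctrl, at 95%, and were tested on simulated data. With 1 library per group there is no test. The limits were 25% higher and 20% lower in Penk KO, for genes with at least 200 UMIs in a class. Named were all 9 members, all family ligands (but 1, not reported here) and receptor chains, the listed genes past a limit in all neurons, and the 5 genes most like Il31ra and the 5 most like Osmr. Members and lists were chosen with earlier results of these data known. The alternatives in the closing section covered cell and gene filters, doublets, droplets, weighting, thinning, scaling and clustering. Gene positions and sequences come from the GRCm39 genome with GENCODE vM39.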

Additional observations from a re-analysis of the deposited data

Results flagged for a closer look

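Il31ra had ratios of Penk KO to Penk ctrl on opposite sides of 1 in 2 neuron subtypes. In peptidergic A-fibre neurons the ratio was 2.53 (2.12 to 3.02, counting error only), with 14.9 CPM in Penk KO and 5.89 CPM in Penk ctrl. In Mrgpra3 pruriceptors it was 0.445 (0.356 to 0.553), with 13.8 CPM in Penk KO and 30.96 CPM in Penk ctrl. The difference between the subtypes was not tested, since each genotype is 1 library. In the peptidergic A-fibre class 4 Penk KO barcodes held 158 of 299 UMIs, and in the Mrgpra3 class 2 Penk ctrl barcodes held 153 of 311 UMIs, each with a UMI of Nppb. Over cells without an Nppb UMI the ratios were 1.10 and 0.851, and both intervals included 1. Over 10 settings of the processing the peptidergic A-fibre ratio ran from 1.81 to 3.43 and the Mrgpra3 ratio from 0.445 to 0.922.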

How the results depend on the processing

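Which values depended on the processing was read from 12 alternatives and 2 added after seeing the data, without the clusters that lean to 1 library and with equal subtypes but no A-delta LTMRs. The Il31ra ratio in all neurons (1.42) was 1.37 without the highest Scrublet scores, 1.14 with each cell weighted equally, 1.21 with each cell thinned to 500 UMIs, 1.32 without the leaning clusters, and 0.779, on the other side of 1, with each subtype weighted equally (0.940 without A-delta LTMRs, where 1 Penk ctrl barcode held 71 of 95 UMIs). The Osmr ratio in all neurons (1.43) was 1.16, 1.11, 1.33 and 0.944 under equal cells, thinning, without the leaning clusters and under equal subtypes (1.05 without A-delta LTMRs). The Osmr ratio in peptidergic A-fibre neurons (1.63) turned to 0.611 under thinning, which leaves few UMIs. The Il31ra ratio in Mrgprd neurons (1.08) ran from 0.471 to 1.30 over 10 settings, on both sides of 1. In Sst/Nppb pruriceptors thinning gave 1.14 for Il31ra and 1.04 for Osmr. The count of members past a limit in all neurons (2) was 0 with equal cells and 0 under thinning, and under equal subtypes it was again 2, Il31ra and Socs3, both lower, but 1, Socs3, without A-delta LTMRs. In Sst/Nppb pruriceptors the count (0) was 1 in droplets used by 1 library, Jak2 with 0.793. Listed pathway genes past a limit in all neurons (6, the members included) were 1 under thinning, 11 under equal subtypes with or without A-delta LTMRs, 13 with a filter of 50 UMIs and 3 with one of 1000 UMIs. The Il31ra level of Sst/Nppb pruriceptors in Penk KO (1546 CPM) was 1640 without high Scrublet scores, 1622 in droplets used by 1 library, 1452 with equal cells, 1640 under thinning, and 1490 and 1596 at Leiden resolutions 0.6 and 1.5. In Penk ctrl (1456 CPM) it was 1567, 1503, 1362 and, at resolution 0.6, 1411 CPM. The cause of these shifts was not tested. Of the other values for single genes, 539 moved by less than their counting interval and 153 by more without changing a called direction. No paired analysis was possible because each genotype has 1 library, and for the same reason no replicate could be left out. Depth limits Tyk2 and Socs3 most, at about 50 to 120 UMIs in the Sst/Nppb class of a library.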
